A study of Rattus norvegicus with 10 samples.

Results

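Messenger RNA was measured for 10 genes of tau biology in the left hippocampus of female TgF-344AD rats: tau itself (Mapt), 3 further structural microtubule-associated proteins (Map2, Map1a and Map1b), the tau kinases Gsk3a, Gsk3b, Cdk5 and Mark1, the Cdk5 activator Cdk5r1, and Ppp2ca, a catalytic subunit of protein phosphatase 2A (PP2A). The genes were taken by symbol, for their function, from a table of 17168 genes. All 10 were present and all 10 passed the filter on low counts, which kept 11791 genes.

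All animals carried the transgenic Alzheimer's disease genotype and were 11 months old when the tissue was taken. The 5 untreated animals ate ordinary rodent chow. The 5 RG2833 animals ate chow with 750 mg of RG2833 per kg for 6 months, from 5 months of age. RG2833 inhibits the histone deacetylases HDAC1 and HDAC3, and a blue food dye was used to tell the 2 chows apart. The strain is known to carry mutant human amyloid precursor protein and presenilin transgenes under the mouse prion protein promoter. It carries no tau transgene, so the Mapt counts are those of the rat gene. No wild-type animals, males or other doses were compared here.

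Tau binds along microtubules, mainly in axons, and detaches when it is heavily phosphorylated. Glycogen synthase kinase 3, which has the isoforms Gsk3a and Gsk3b, and Cdk5 bound to its activator p35 (the product of Cdk5r1) are 2 of the main kinases that phosphorylate tau, Mark1 phosphorylates its microtubule-binding repeats, and PP2A is its main phosphatase in brain. Map2 is the dendritic counterpart of tau, and Map1a and Map1b are large proteins of mature and growing neurites. These steps act on protein, and the data here are levels of mRNA.

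Of the 10 genes, Gsk3a alone rose in RG2833 animals and 0 fell. Gsk3a was 35.5% higher by the fitted fold change, and its groups did not overlap. Mapt, the 3 other microtubule-associated proteins, Gsk3b, Cdk5, Cdk5r1, Mark1 and Ppp2ca did not pass the test. Levels are given as CPM, meaning counts brought to 1 common library size with the trimmed mean of M values (TMM), and called genes are those whose p in edgeR's quasi-likelihood test, adjusted over all 11791 genes, was below 0.05. By that rule 5.08% of all tested genes were called, 2.41% as higher and 2.67% as lower in RG2833 animals, so 1 call among 10 genes is close to the background. A log2 fold change above 0 was found for 8 of the 10 genes and for 49.4% of all tested genes. At an unadjusted p under 0.05, 1 of the 10 genes passed, where 24.5% of all tested genes did. The median log2 fold change was 0.13 over the 10 genes and -0.0035 over all tested genes.

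**Figure D1:**
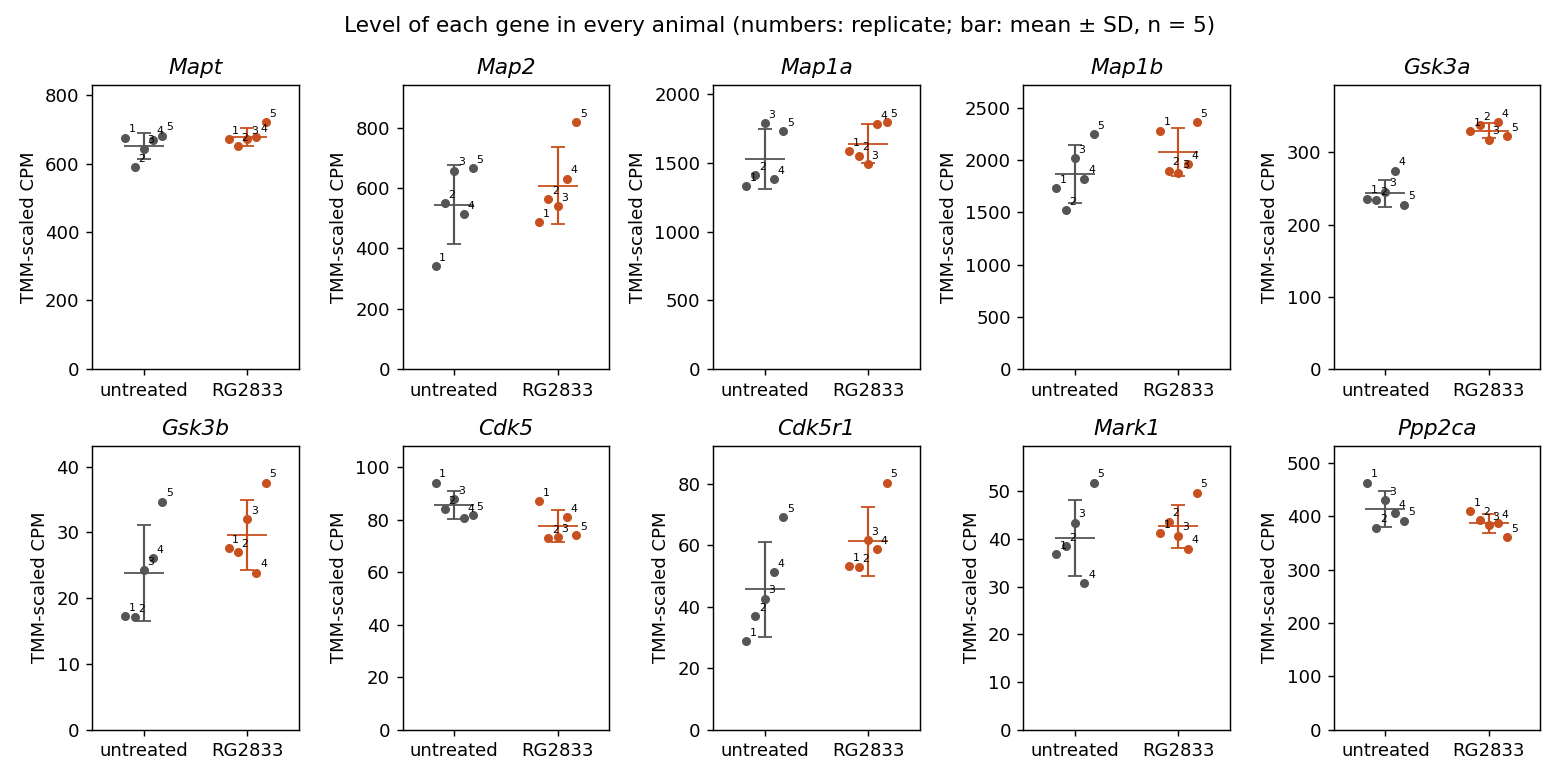
TMM-scaled CPM of each gene (vertical axis, from 0) in the 5 untreated (grey) and 5 RG2833 animals (orange). Points are animals with their replicate number, and bars give mean ± SD. Only for Gsk3a do all 5 RG2833 animals, at 318 to 342 CPM, lie above all 5 untreated animals, at 227 to 275 CPM.

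Total counts ran from 8764245 to 11311652 per animal, and the lowest count of any of the 10 genes in any animal was 151 (Gsk3b), far above the floor of 3 counts. Ribosomal RNA loci took 2.70% to 5.36% of the counts in untreated and 1.13% to 1.96% in RG2833 animals, so this share separated the groups as the treatment did and the 2 cannot be told apart. Excitatory neuron markers (Slc17a7, Neurod6, Neurod2, Tbr1, Cux2, Prox1 and Nrgn) summed to between 4180.4 and 5706 CPM among untreated and between 5689 and 6606 CPM in RG2833 animals. Of these 7 markers, 6 had a log2 fold change above 0 and 0 were called. The excitatory neuron score was the mean over these 7 markers of log2 CPM less each marker's mean over the animals. It was -0.26 ± 0.29 in untreated and 0.26 ± 0.17 in RG2833 animals (SD, n = 5), with overlapping groups. Pan-neuronal markers summed to between 5137 and 8041 CPM among untreated and between 7469 and 9171 CPM in RG2833 animals, and 1 of 6, Rbfox3, was called (log2 fold change 0.57, adjusted p = 0.0400 in edgeR). Inhibitory neuron markers summed to between 411 and 766 CPM among untreated and between 428 and 581 CPM in RG2833 animals. In bulk tissue, fewer cells of a type and less RNA per cell cannot be told apart. Choroid plexus markers, of which 2 of 5 were tested, summed to between 9.54 and 2426 CPM among untreated (median 13.3) and between 5.91 and 43.0 CPM in RG2833 animals (median 10.7). The highest sum was that of 1 untreated animal and was nearly all Ttr (2381 CPM), and Prlr was called as lower (-0.86, adjusted p = 0.0394 in edgeR). Of 6 microglial markers Aif1 was called as lower (-0.74, adjusted p = 0.0496 in edgeR), and 0 of 6 endothelial and mural markers had a log2 fold change above 0. No marker of astrocytes, oligodendrocytes or their precursors was called.

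For Gsk3a, the gene that rose, for its paralog Gsk3b and for Cdk5r1, whose level followed that of Gsk3b across animals, the start regions are shown, from 250 bases before to 50 bases after the annotated gene start. They are RefSeq sequences of the GRCr8 assembly, read 5′ to 3′ on the strand of the gene: Gsk3a at chr1:89953465-89953764, minus strand, Gsk3b at chr11:76153200-76153499, minus strand, and Cdk5r1 at chr10:65981765-65982064, plus strand. Capitals mark the GC box GGGCGG or its reverse complement CCGCCC, and the E-box CACGTG.
Gsk3a: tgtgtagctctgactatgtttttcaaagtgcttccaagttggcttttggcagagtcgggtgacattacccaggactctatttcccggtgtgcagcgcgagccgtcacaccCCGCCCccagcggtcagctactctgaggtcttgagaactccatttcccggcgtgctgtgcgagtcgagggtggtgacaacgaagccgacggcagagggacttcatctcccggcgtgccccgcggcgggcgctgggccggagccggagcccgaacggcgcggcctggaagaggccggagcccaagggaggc
Gsk3b: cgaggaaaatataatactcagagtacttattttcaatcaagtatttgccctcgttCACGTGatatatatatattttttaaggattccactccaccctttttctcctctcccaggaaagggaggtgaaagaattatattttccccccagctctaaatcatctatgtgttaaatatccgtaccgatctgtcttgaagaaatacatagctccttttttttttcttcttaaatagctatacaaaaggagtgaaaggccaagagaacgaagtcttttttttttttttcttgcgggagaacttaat
Cdk5r1: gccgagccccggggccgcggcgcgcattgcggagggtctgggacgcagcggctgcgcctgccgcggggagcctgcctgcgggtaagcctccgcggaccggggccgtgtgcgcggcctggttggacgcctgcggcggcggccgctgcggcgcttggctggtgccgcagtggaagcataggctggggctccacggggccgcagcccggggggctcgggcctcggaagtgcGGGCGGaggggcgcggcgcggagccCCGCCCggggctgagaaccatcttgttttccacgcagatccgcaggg

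The 2 kinase isoforms had unlike start regions. The Gsk3a window had a GC content of 64.0% and 27 CpG dinucleotides, whereas the Gsk3b window had 34.7% and 7. The Cdk5r1 window had 78.0% and 42 CpG dinucleotides. Over all 33469 windows of the same length the medians were 51.7% and 7. The GC box on either strand was found once in the Gsk3a window, at -140 from the start, 2 times in the Cdk5r1 window and not in the Gsk3b window. It was present in 33.1% of all windows. The E-box was found once, in the Gsk3b window, against 6.42% of all windows. Among the 9 genes with a window, GC content ran from 33.3% (Map2) to 86.0% (Mark1), and the cyclic AMP response element TGACGTCA was found in that of Ppp2ca only, against 1.83% of all windows. These are letter matches in an assembly that differs from the rn6 build named for the counts.

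Gsk3a encodes the alpha isoform of glycogen synthase kinase 3. Its level was 236, 234, 245, 275 and 227 CPM in untreated replicates 1 to 5 and 329, 338, 318, 342 and 323 CPM in RG2833 replicates 1 to 5. The lowest RG2833 animal was above the highest untreated one, which was replicate 4. Among all tested genes, 7.27% had groups without overlap, 3.80% with RG2833 higher and 3.47% with RG2833 lower. The means were 243 ± 18.7 and 330.0 ± 10.2 CPM (SD, n = 5 each). The log2 fold change was 0.44 ± 0.07 (SE, 95% interval 0.29 to 0.59; adjusted p = 0.00828 in edgeR), and its p-value ranked 40 among the 11791 genes. Gsk3a stayed called in all 10 leave-one-out fits, each without 1 animal, with log2 fold changes from 0.42 to 0.49 and a highest edgeR adjusted p of 0.0331 without RG2833 replicate 2. With the excitatory neuron score as a covariate its log2 fold change was 0.37 ± 0.10 (SE; adjusted p = 0.805 in edgeR). With the ribosomal RNA share in its place it was 0.41 ± 0.14 (SE; adjusted p = 0.99992 in edgeR). The ribosomal RNA share separated the groups and the neuron score differed between them. These fits therefore cannot tell whether the size was retained, and the call was lost in both. In those fits 6 and 2 of all tested genes were called.

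Gsk3b encodes the beta isoform, the one most often studied as a tau kinase. It was 17.3, 17.1, 24.3, 26.1 and 34.7 CPM in untreated replicates 1 to 5 and 27.6, 27.0, 32.0, 23.9 and 37.6 CPM in RG2833 replicates 1 to 5. The groups overlapped widely: untreated replicate 5 was above 4 of the RG2833 animals, and untreated replicates 1 and 2 were below all of them. A log2 fold change of 0.31 ± 0.19 (SE, 95% interval -0.10 to 0.72; adjusted p = 0.331 in edgeR) was fitted. For Gsk3b it was 0.48 without untreated replicate 5 (adjusted p = 0.0882 in edgeR), and 0.21 without untreated replicate 2. The interval holds the fold change of Gsk3a, so the difference in call between the isoforms is no sign that they responded differently. The log2 ratio of Gsk3a to Gsk3b was 3.39 ± 0.43 in untreated and 3.49 ± 0.29 in RG2833 animals (SD, n = 5), a difference of 0.099 (two-sided exact permutation test, p = 0.683). The counts are not per length, and how fully the annotation used for counting covers each transcript is not given in the sources used here, so the ratio was compared between groups and its size does not tell which isoform is more abundant. The coefficient of variation of Gsk3b between animals was 30.5% in untreated animals, against 6.48% from counting alone at its mean count.

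**Figure D2:**
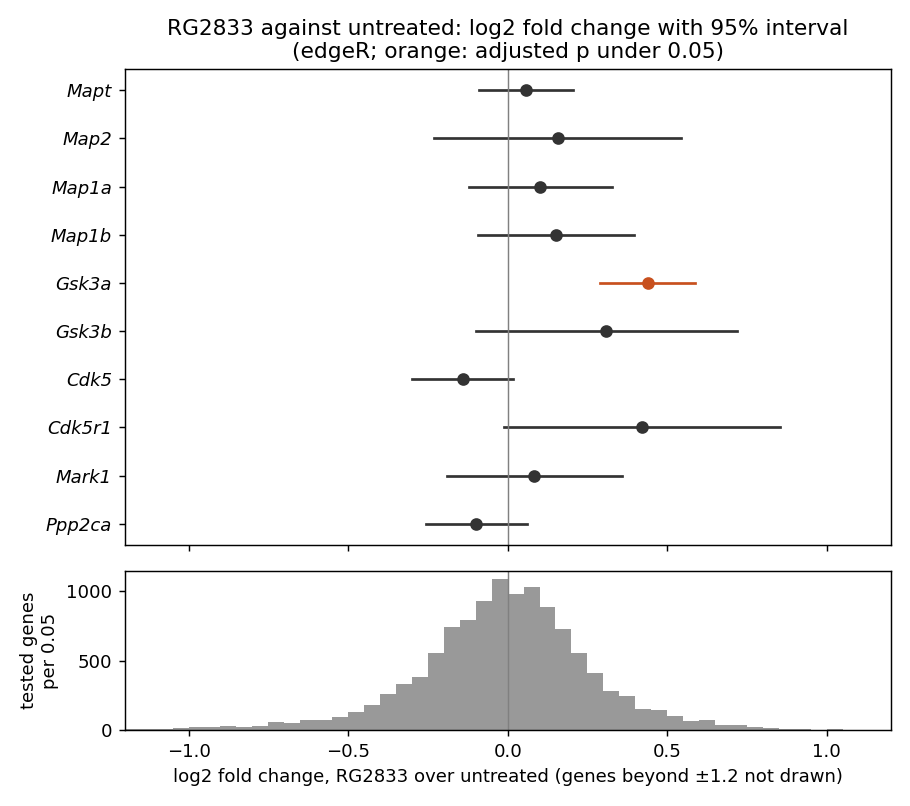
Upper panel: log2 fold change of each gene, RG2833 over untreated, with its 95% interval from edgeR. Lower panel: the same measure over tested genes. Gsk3a, at 0.44, is the gene whose interval lies entirely above 0, and the interval of Cdk5r1 runs from -0.010 to 0.85.

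Cdk5 is a cyclin-dependent kinase of postmitotic neurons that is active only when bound to p35 or p39, the products of Cdk5r1 and Cdk5r2. Cdk5r1 was 28.7, 37.0, 42.6, 51.2 and 69.2 CPM in untreated replicates 1 to 5 and 53.2, 52.9, 61.6, 58.7 and 80.3 CPM in RG2833 replicates 1 to 5. Of the untreated animals, 4 lay below all RG2833 animals and replicate 5 lay above 4 of them. The log2 fold change, 0.42 ± 0.20 (SE), was nearly that of Gsk3a, but its error was larger and it did not pass (adjusted p = 0.215 in edgeR). Without untreated replicate 5 it was 0.62 and passed (adjusted p = 0.0441 in edgeR), and in the other 9 leave-one-out fits it did not. With the excitatory neuron score as a covariate the log2 fold change was -0.047 ± 0.27 (SE; adjusted p = 0.988 in edgeR). With the ribosomal RNA share it was -0.053 ± 0.38 (SE; adjusted p = 0.99992 in edgeR).

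The kinase subunit itself was not called either. Cdk5 was 85.6 ± 5.46 CPM among untreated and 77.6 ± 6.17 CPM among RG2833 animals (SD, n = 5), between 80.7 and 94.0 CPM in the former and between 72.9 and 86.9 CPM in the latter. Its log2 fold change was -0.14 ± 0.07 (SE, 95% interval -0.30 to 0.016; adjusted p = 0.2503 in edgeR). The log2 ratio of Cdk5r1 to Cdk5 was -0.96 ± 0.55 in untreated and -0.35 ± 0.31 in RG2833 animals (SD, n = 5). The difference of 0.61 did not pass (two-sided exact permutation test, p = 0.0794, adjusted over 5 gene pairs p = 0.298; the smallest p possible is 0.00794). Ratios of this kind do not depend on library scaling.

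Mark1, a kinase that phosphorylates tau in its microtubule-binding repeats, was between 30.7 and 51.8 CPM among untreated and between 38.0 and 49.7 CPM in RG2833 animals. All RG2833 values lay inside the untreated range. Its log2 fold change was 0.083 ± 0.13 (SE, 95% interval -0.19 to 0.36; adjusted p = 0.723 in edgeR), and without untreated replicate 4 it was -4.37e-05.

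Ppp2ca encodes the alpha isoform of the PP2A catalytic subunit. It was between 378 and 463 CPM among untreated and between 360.1 and 409.5 CPM in RG2833 animals, with means of 414 ± 33.5 and 386 ± 17.8 CPM (SD, n = 5). Its fitted log2 fold change was -0.098 ± 0.073 (SE, 95% interval -0.26 to 0.060; adjusted p = 0.431 in edgeR), and without untreated replicate 1 it was -0.054. Set against the kinase Gsk3b in the same animals, the log2 ratio of Gsk3b to Ppp2ca was 0.44 higher in RG2833 animals (two-sided exact permutation test, p = 0.119, adjusted over 5 pairs p = 0.298).

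Mapt had the tightest values of the 10 genes in untreated animals. It was 676, 589, 644, 670.1 and 681 CPM in untreated replicates 1 to 5 and 671, 651, 672, 677 and 722 CPM in RG2833 replicates 1 to 5. The groups overlapped almost completely, with untreated replicate 2 low and RG2833 replicate 5 high. The means were 652 ± 38.2 and 678 ± 26.1 CPM (SD, n = 5), which are coefficients of variation of 5.87% and 3.85%. For Mapt the log2 fold change was 0.057 ± 0.068 (SE; adjusted p = 0.634 in edgeR). The 95% interval ran from -0.089 to 0.20, so larger differences in either direction fall outside it. Without untreated replicate 2 the log2 fold change was 0.023.

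Map2, the dendritic protein, varied far more. It was 342, 549.7, 658, 513 and 665 CPM in untreated replicates 1 to 5 and 488, 562, 540.5, 631 and 819 CPM in RG2833 replicates 1 to 5. Untreated replicate 1 stood lowest and RG2833 replicate 5 highest, and the remaining 8 animals of both groups were interleaved. The log2 fold change of 0.16 ± 0.18 (SE, 95% interval -0.23 to 0.54; adjusted p = 0.623 in edgeR) was smaller than its error, and without RG2833 replicate 5 it was 0.027. The log2 ratio of Mapt to Map2 differed between the groups by -0.11, less than the SDs of 0.42 and 0.24 (two-sided exact permutation test, p = 0.651), and without untreated replicate 1 the difference was 0.059.

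Map1a, which is abundant in mature dendrites and axons, was between 1330 and 1792 CPM among untreated and between 1490.1 and 1799 CPM in RG2833 animals (log2 fold change 0.10 ± 0.10, SE; adjusted p = 0.574 in edgeR). Map1b, which is abundant in growing neurites and retained in parts of the adult brain, was between 1520.1 and 2249.7 CPM among untreated and between 1875 and 2366 CPM in RG2833 animals (0.15 ± 0.11, SE; adjusted p = 0.432 in edgeR). Both had overlapping groups, and neither difference exceeded the spread between animals. The log2 ratio of Map1a to Map1b, -0.29 ± 0.14 in untreated and -0.34 ± 0.14 in RG2833 animals (SD, n = 5), differed by -0.048 (p = 0.627, two-sided exact permutation test). When 1 animal was left out, the log2 fold change ran from 0.056 (without untreated replicate 1) to 0.16 (without untreated replicate 3) for Map1a and from 0.086 (without untreated replicate 2) to 0.23 (without untreated replicate 5) for Map1b. The difference in their ratio then ran from -0.098 (without RG2833 replicate 4) to -9.08e-05 (without RG2833 replicate 1). Of the 5 gene ratios compared, 0 passed after adjustment, and 0 had an unadjusted p under 0.05.

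Some pairs of the genes varied together across the 10 animals of both groups. RG2833 replicate 5 had the highest value of 6 of the 10 genes (Mapt, Map2, Map1a, Map1b, Gsk3b and Cdk5r1) and the lowest value of Ppp2ca. Gsk3b and Cdk5r1 were the closest pair: over 10 animals their log2 CPM had a Pearson r of 0.94 (permutation p = 0.00011, adjusted over 45 pairs p = 0.00495) and a Spearman rho of 0.87 (permutation p = 0.00243, adjusted p = 0.0583). Without the 2 animals farthest from the median of Gsk3b, untreated replicates 1 and 2, r was 0.87. With the group means taken out r was 0.92. Map2 and Map1a had an r of 0.83 (permutation p = 0.00049, adjusted p = 0.0110) and a rho of 0.83 (permutation p = 0.00439, adjusted p = 0.0658), with an r of 0.79 without the 2 farthest animals and 0.82 with the group means taken out. These were the 2 pairs of 45 whose Pearson r passed after adjustment, and 0 passed by Spearman's rho. The permutations exchanged animals of both groups, so these p-values do not test variation within a group. The r with the group means taken out was not tested. All genes were measured in the same libraries and share their depth.

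**Figure D3:**
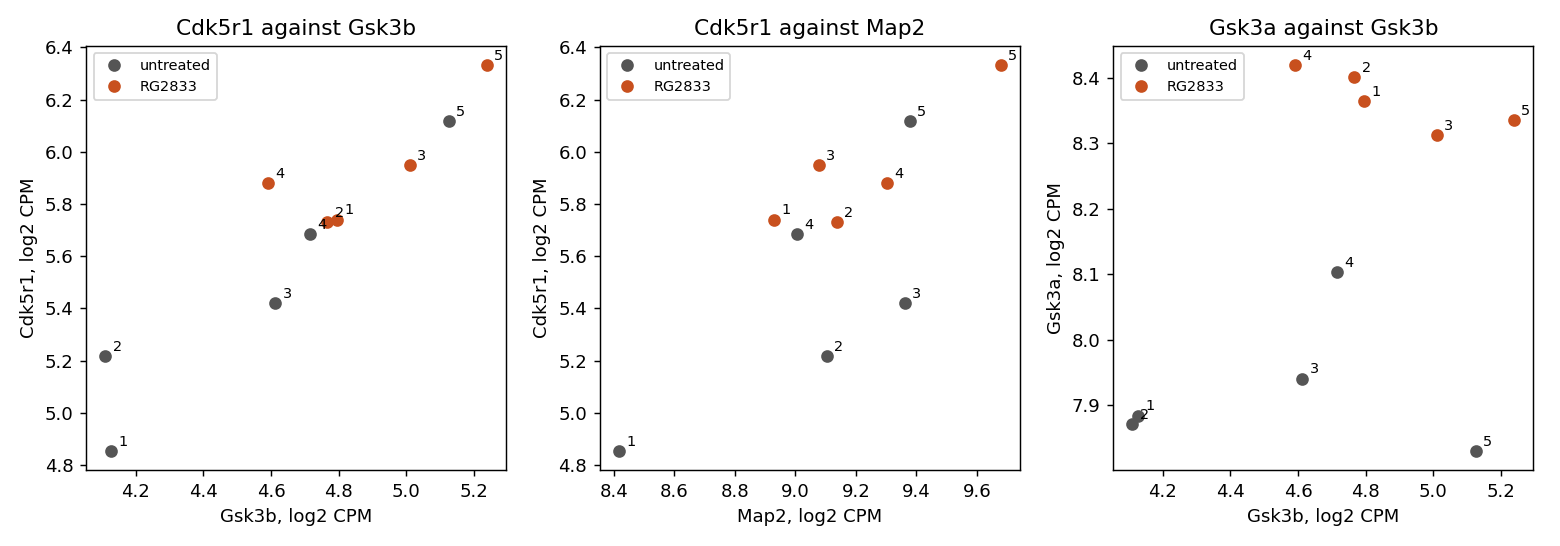
Log2 CPM of pairs of genes in the 5 untreated (grey) and 5 RG2833 animals (orange), numbered by replicate. Cdk5r1 followed Gsk3b (left, r = 0.94) across both groups, whereas Gsk3a (right) split by group at any level of Gsk3b.

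The genes most like Mapt across the 10 animals, among 9199 genes with a mean log2 CPM of at least 3, were Gpr158 (a G-protein-coupled receptor), Trim32 (a ubiquitin ligase), Soat1 (a cholesterol esterifying enzyme), Acan (aggrecan, of perineuronal nets) and Mcu (the mitochondrial calcium uniporter), with Pearson r from 0.90 to 0.94. With the group means taken out they were Trim32 (r = 0.98), Gpr158 (0.93), the growth factor receptor gene Fgfr1 (0.93), the calcium channel subunit gene Cacna2d3 (0.92) and the coatomer gene Copg2 (0.91). These are the highest values among many genes and describe 10 libraries only. The 2 animals farthest from the median of Mapt were untreated replicate 2 and RG2833 replicate 5. Without them the r of Mapt with Map1b went from 0.75 to 0.090 and that with Gsk3b from 0.68 to 0.083. The r without these animals was not computed for the 8 genes named here. Of the 8 genes, Fgfr1 rose in RG2833 animals (log2 fold change 0.77 ± 0.17, SE; adjusted p = 0.0288 in edgeR) and the other 7 did not pass.

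Beyond these 10 genes, 117 others of tau and microtubule biology had been listed in 6 groups. Of these, 106 were tested, 1 (Fign) was removed as low, and 10 were not analysed here. Among the 106, 7 rose and 3 fell, 9.43% in all beside 5.08% of all tested genes, and their median log2 fold change was 0.072. At an unadjusted p under 0.05, 26 of the 106 were higher and 12 lower, beside 11.8% of all tested genes higher and 12.7% lower.

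Of 27 other tau kinases and activators, the longest of the 6 lists, 4 rose and 1 fell, 18.5% in all beside 5.08% of all tested genes, and their median log2 fold change was 0.15. The lists were not compared with one another by a test. Cdk5r2, the second Cdk5 activator (p39), was between 173 and 280.2 CPM among untreated and between 308 and 357 CPM in RG2833 animals, with means of 214 ± 45.1 and 333 ± 21.7 CPM (SD, n = 5). Its groups did not overlap, and its log2 fold change was 0.64 ± 0.12 (SE; adjusted p = 0.0187 in edgeR). It was called in 6 of the 10 leave-one-out fits, and lost without untreated replicate 3 or RG2833 replicates 1, 2 or 3 (highest adjusted p = 0.0588 in edgeR). Mark4, of the same kinase family as Mark1, rose by 0.44 ± 0.09 (log2, SE; adjusted p = 0.0239 in edgeR), from 116 to 151 CPM in untreated to 166 to 198 CPM in RG2833 animals. It was called in 5 of the 10 fits, and lost without untreated replicate 1 or RG2833 replicates 1, 2, 4 or 5 (highest adjusted p = 0.0679 in edgeR). Fyn, a tyrosine kinase that binds and phosphorylates tau, rose by 0.30 ± 0.07 (log2, SE; adjusted p = 0.0309 in edgeR), and the calcium-dependent kinase gene Camk2a by 0.67 ± 0.17 (adjusted p = 0.0459 in edgeR). Stk11, the upstream kinase of the Mark and AMP-activated kinases, fell, with a log2 fold change of -0.38 ± 0.10 (SE; adjusted p = 0.0417 in edgeR). Fyn and Stk11 were called in 2 of the 10 fits and Camk2a in 1, with highest edgeR adjusted p-values of 0.0874 (without untreated replicate 3), 0.1103 and 0.122 (both without RG2833 replicate 5).

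**Figure D4:**
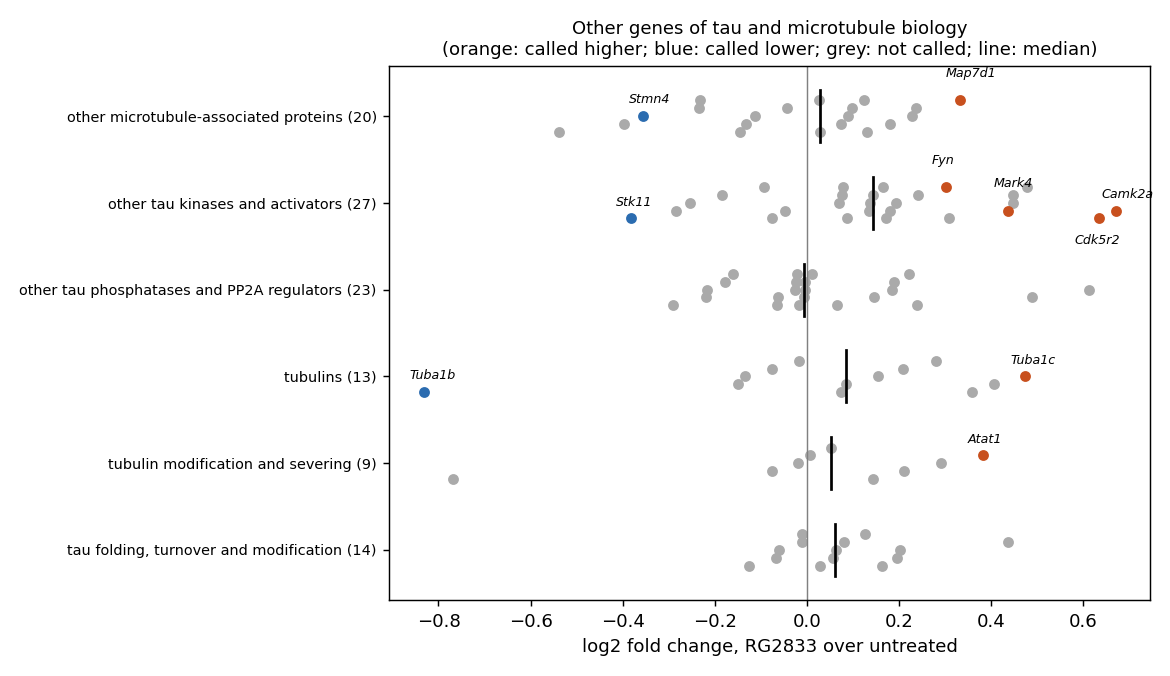
Log2 fold change, RG2833 over untreated, of 106 tested genes in 6 lists, with the number tested in parentheses. Orange points were called higher, blue points lower and grey points not called, and black lines are list medians, from -0.0066 for phosphatases to 0.15 for kinases.

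Of 23 other phosphatase and PP2A regulator genes, 0 were called by edgeR, 8 had an unadjusted p under 0.05 (24.5% of all tested genes did), and their median log2 fold change was -0.0066. The nearest to the threshold were Ppp2r2c, a regulatory subunit of PP2A (0.49 ± 0.14, SE; adjusted p = 0.0644 in edgeR), and Ppp2cb, the beta catalytic subunit, at -0.22 ± 0.07 (SE; adjusted p = 0.0693 in edgeR). Ppp2cb was 173 to 197 CPM among untreated and 146 to 165 CPM in RG2833 animals, without overlap. In this list 2 other genes had no overlap, and both were higher in RG2833 animals. Ppme1 was 216 to 223 CPM among untreated and 233 to 260 CPM in RG2833 animals. Ppp3cb was 324 to 460 CPM among untreated and 471 to 495 CPM in RG2833 animals. Among all tested genes 7.27% had groups without overlap.

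Of 20 other microtubule-associated protein genes, 1 rose and 1 fell, 10.0% in all beside 5.08% of all tested genes. Map7d1 rose (0.33 ± 0.07, SE; adjusted p = 0.0297 in edgeR) and Stmn4, a stathmin that binds tubulin dimers, fell (-0.35 ± 0.09, SE; adjusted p = 0.0449 in edgeR). Map7d1 was called in 3 of the 10 leave-one-out fits (highest edgeR adjusted p 0.0855, without untreated replicate 3) and Stmn4 in 2 (0.118, without RG2833 replicate 5). Of 9 genes of tubulin modification and severing, 1 was called, or 11.1% beside the same 5.08%. This was Atat1, the enzyme that acetylates alpha-tubulin, at 45.2 ± 3.38 CPM among untreated and 58.9 ± 3.60 CPM among RG2833 animals (SD, n = 5). It rose by 0.38 ± 0.07 (log2, SE; adjusted p = 0.0183 in edgeR). It was called in 6 of the 10 fits, and lost without untreated replicate 3 or RG2833 replicates 1, 2 or 5 (highest adjusted p = 0.0588 in edgeR).

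Of 13 tubulin genes, 1 rose and 1 fell, 15.4% in all beside 5.08% of all tested genes, and they were near-identical copies. Tuba1b was between 481 and 757 CPM among untreated and between 266 and 409.97 CPM in RG2833 animals (log2 fold change -0.83 ± 0.14, SE; adjusted p = 0.0114 in edgeR), and stayed called in all 10 leave-one-out fits. With the excitatory neuron score as a covariate its log2 fold change was -0.35 and it was not called (adjusted p = 0.820 in edgeR). Tuba1c was between 428 and 586 CPM among untreated and between 657 and 795 CPM in RG2833 animals (0.47 ± 0.10, SE; adjusted p = 0.0260 in edgeR), and was called in 4 of the 10 fits. It was lost without untreated replicate 1 or any RG2833 animal (highest edgeR adjusted p 0.0689, without RG2833 replicate 5). These alpha-tubulin genes share much of their coding sequence, so the division of reads between them is uncertain. Their sum, computed after the values were seen, was 1128 ± 147 CPM among untreated and 1057 ± 105 CPM among RG2833 animals (SD, n = 5), with overlapping groups.

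Of 14 genes of tau folding, turnover and modification, 0 were called by edgeR and 2 had an unadjusted p under 0.05, beside 24.5% of all tested genes. These were Bag3, a co-chaperone of selective autophagy (0.44 ± 0.15, SE; adjusted p = 0.101 in edgeR), and Fkbp4, an Hsp90 co-chaperone that binds tau (0.16 ± 0.07, SE; adjusted p = 0.175 in edgeR).

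With the excitatory neuron score as a covariate, 0 of the 106 related genes and 0 of the 10 genes were called, and the same counts were found with the ribosomal RNA share. With the ribosomal RNA share the log2 fold change was 0.50 for Mark4, 0.39 for Atat1, 0.58 for Cdk5r2, 0.48 for Camk2a, 0.24 for Map7d1, 0.16 for Fyn, 0.48 for Tuba1c, -0.55 for Tuba1b, -0.054 for Stk11 and -0.40 for Stmn4. The neuron score gave other shifts. With that score the log2 fold change of Gsk3b went from 0.31 ± 0.19 to -0.15 ± 0.26 (SE). For Cdk5r1 it went from 0.42 ± 0.20 to -0.047 ± 0.27 (SE). For Gsk3a it went from 0.44 ± 0.07 to 0.37 ± 0.10 (SE). For Mark4 it went from 0.44 ± 0.09 to 0.33 ± 0.14 and for Atat1 from 0.38 ± 0.07 to 0.31 ± 0.11 (SE). For Cdk5r2 it went from 0.64 to 0.39, for Camk2a from 0.67 to 0.35, for Map7d1 from 0.33 to 0.15 and for Fyn from 0.30 to 0.15. Of the genes that fell, Tuba1b went from -0.83 to -0.35, Stk11 from -0.38 to -0.14 and Stmn4 from -0.35 to -0.097, and Tuba1c was further from 0 in that fit, at 0.59 against 0.47. None of these genes was called in that fit (edgeR adjusted p from 0.791 to 0.988), and whether the shifts differ from one another was not tested.

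**Figure D5:**
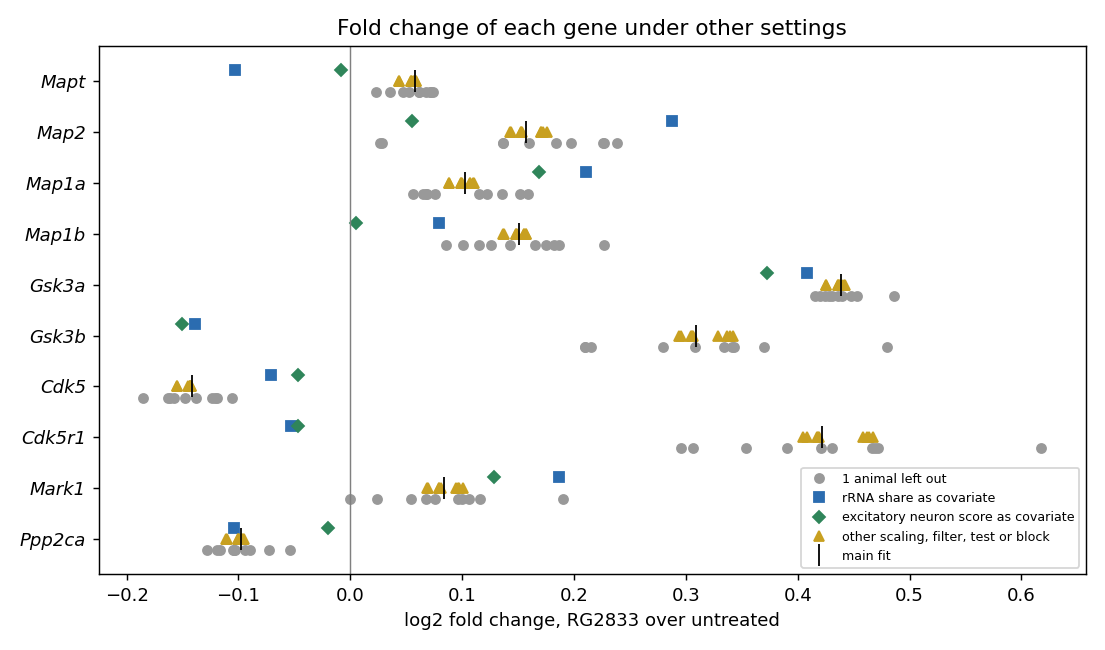
Log2 fold change of each gene, RG2833 over untreated, in the main fit (black line) and under each alternative (grey, 1 animal left out; blue and green, covariates; yellow, other scaling, filter, test or block). Gsk3a stayed between 0.37 and 0.49, and Mapt, Gsk3b and Cdk5r1 moved below 0 with either covariate, each less than 1 SE from 0.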

How the data were processed

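RNA of the left hippocampus was compared between 5 untreated and 5 RG2833 female rats. Each column was matched to a sample by its title. Per the submitters' processing notes, bcl2fastq 2.17, Bowtie2 2.1.0, RSEM 1.2.15, edgeR and the build rn6 were used, and the libraries came from a stranded mRNA kit per the labels' protocols. The strand setting and the annotation of the counting are not given in the sources used here, so overlapping and antisense genes could share reads. The authors deposited expected counts, not normalized, and a signal in CPM after TMM scaling. For the 10 genes the deposited CPM were 0.993 to 1.01 times those computed here.

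Expected counts were rounded and filtered with filterByExpr, and all genes were fitted with edgeR 4.0.16 (quasi-likelihood test, TMM scaling, no covariate, Benjamini-Hochberg adjustment over 11791 genes). The SE was obtained from the F statistic, and intervals are at 95%. A prior count of 2 was added for log2 CPM. The fit was checked on simulated data. The members, lists and tests were chosen with earlier results of these data known. Genes named were the 10 members, genes called in a list or, with none, the 2 with the smallest p, and the 5 most like Mapt. Intervals cover counting and animal spread as fitted, and the deposited counts carry no molecular identifiers. Transcript lengths were not used, so levels were not compared between genes. Both groups carry the numbers 1 to 5, which name different animals. Within groups, 20 library pairs differed by a chi-square per degree of freedom of 4.73 to 38.1, so each was counted as 1 animal. Alternatives were other scalings and filters, DESeq2 1.42.0, limma 3.58.1, a replicate block, 2 covariates and leaving out each animal. One excitatory neuron marker is not reported here and was left out of the marker sum and the neuron score.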

Additional observations from a re-analysis of the deposited data

How the results depend on the processing

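The count of members called was 1 under the scalings, the filters, both limma methods, the DESeq2 test, the replicate block and an adjusted p under 0.1. It was 0 with the ribosomal RNA covariate and 0 with the excitatory neuron score, and ran from 1 to 2 when 1 animal was left out. The log2 fold change of Gsk3a kept its direction in each alternative (0.37 to 0.49) and lost its call with these covariates (0.41 and 0.37). That of Cdk5r1 ran from 0.296 to 0.617 when 1 animal was left out. With the ribosomal RNA share, reversed values were -0.10 ± 0.13 for Mapt, -0.14 ± 0.36 for Gsk3b and -0.053 ± 0.38 for Cdk5r1 (SE). With the neuron score they were -0.0080 ± 0.10 for Mapt, -0.15 ± 0.26 for Gsk3b and -0.047 ± 0.27 for Cdk5r1 (SE). Each was less than 1 SE from 0. The cause of these shifts was not tested.

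Leaving out 1 animal gave log2 fold changes from -4.37e-05 to 0.190 for Mark1, log2 ratio differences from -0.195 to 0.0589 for Mapt to Map2 and from -0.0716 to 0.196 for Gsk3a to Gsk3b, and 98 to 1556 called genes against 599, with 1556 without untreated replicate 4. Related genes called, 10 in the main fit, ran from 1 to 22 when 1 animal was left out, with 22 without untreated replicate 4. All genes and related genes called were 1295 and 21 with DESeq2's Wald test, 2 and 0 with the ribosomal RNA share, 6 and 0 with the neuron score, and 1466 and 22 at an adjusted p under 0.1. In the replicate block they were 180 and 5, and of the 10 related genes called without the block 3 were called there (Camk2a, Cdk5r2 and Tuba1b) and 7 were not (Atat1, Fyn, Map7d1, Mark4, Stk11, Stmn4 and Tuba1c, edgeR adjusted p from 0.0551 to 0.103). Calls split into 284 higher and 315 lower, into 228 and 367 with library totals only, and into 294 and 255 with limma-voom. The numbers do not pair the animals (mean correlation of same-numbered deviations -0.066, and 1 of 10 samples correlated best with its own number), and no call of a member changed with the block. For the gene ratios, exchanging labels within 5 same-numbered pairs cannot give a p under 0.0625. Each of the 10 genes had at least 151 counts in each animal, and whether more depth would change the calls was not tested.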
